A study of Mus musculus with 10 samples.

Results

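The genes described here are 10 mouse genes that buffer, sense and move zinc: the metallothioneins Mt1 and Mt2, the zinc sensor Mtf1, the importers Slc39a4, Slc39a5, Slc39a8 and Slc39a14, and the exporters Slc30a1, Slc30a2 and Slc30a10. They were taken by gene symbol, and all 10 were found among the 19505 genes measured, each with 1 probe set, the group of probes that reads 1 transcript. RNA came from intestinal organoids, miniature gut epithelia grown in culture, of 2 genotypes. 5 samples were labelled KO for IκBα, the inhibitor that holds NF-kB transcription factors out of the nucleus, and 5 were labelled WT for it. All 10 carry the mark P6 in the labels, which is not interpreted here. The sources used here name neither the strain nor the deleted part of the gene. They also do not say whether the 5 samples of a genotype were separate animals or cultures, so each p-value rests on a spread between samples that may be technical.

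Zinc is held at a very low free level in the cell. Metallothioneins are small cysteine-rich proteins that bind zinc, copper and cadmium. MTF1, the product of Mtf1, is a zinc-finger factor that binds DNA when zinc is plentiful and switches on metallothionein genes and Slc30a1 through short sites called metal response elements. ZIP proteins (Slc39 genes) move zinc into the cytosol, from outside or from vesicles, and ZnT proteins (Slc30 genes) move it out again. In the small intestine, ZIP4 (Slc39a4) takes up dietary zinc at the brush border, ZIP5 (Slc39a5) lies on the basolateral side, and ZnT2 (Slc30a2) loads zinc into the granules of Paneth cells. Some members also carry other metals: ZIP8 (Slc39a8) and ZIP14 (Slc39a14) carry manganese as well as zinc, and ZnT10 (Slc30a10) exports manganese.

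The promoters of 3 genes known as MTF1 targets are shown first, since metal response elements are the sites by which this sensor is known to act on them. Each line holds 250 bases before and 50 after an annotated transcript start, 5′ to 3′ on the strand of the gene, from RefSeq (build GRCm38.p6). Capitals mark the 7-base core of the element, searched on both strands as TGCACNC and TGCGCNC, so that a match on the opposite strand reads in reverse complement. The window of Mt1 lies at chr8:94178839-94179138, that of Mt2 at chr8:94172368-94172667 and that of Slc30a1 at chr1:191906531-191906830, all on the + strand.
Mt1: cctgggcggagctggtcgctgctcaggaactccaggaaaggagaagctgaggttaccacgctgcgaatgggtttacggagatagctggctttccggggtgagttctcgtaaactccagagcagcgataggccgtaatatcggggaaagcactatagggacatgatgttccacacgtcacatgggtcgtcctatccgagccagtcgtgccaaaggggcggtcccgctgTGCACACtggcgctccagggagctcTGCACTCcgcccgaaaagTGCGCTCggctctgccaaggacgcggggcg
Mt2: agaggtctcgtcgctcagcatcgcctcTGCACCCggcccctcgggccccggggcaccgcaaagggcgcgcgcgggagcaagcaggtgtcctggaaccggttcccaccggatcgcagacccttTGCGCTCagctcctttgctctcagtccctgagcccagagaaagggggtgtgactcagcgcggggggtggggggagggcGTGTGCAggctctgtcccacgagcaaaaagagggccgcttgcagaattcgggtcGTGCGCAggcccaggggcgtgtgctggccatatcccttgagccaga
Slc30a1: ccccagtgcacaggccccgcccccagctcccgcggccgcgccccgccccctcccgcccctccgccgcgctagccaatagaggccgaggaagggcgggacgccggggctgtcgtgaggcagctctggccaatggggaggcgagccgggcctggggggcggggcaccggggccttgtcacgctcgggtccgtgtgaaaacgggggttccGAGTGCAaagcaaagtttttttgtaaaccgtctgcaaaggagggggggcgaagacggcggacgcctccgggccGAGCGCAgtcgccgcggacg

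The Mt2 window held 4 matches, that of Mt1 held 3 and that of Slc30a1 held 2. Those of Mt1 began at -23, 3 and 21 from the annotated start, and those of Mt2 at -223, -128, -50 and 5. Bases outside the windows were not searched, so these need not be all the sites of a gene. Whether the annotated starts are those used in these organoids was not tested. Of the other members, Slc30a10 had 3 matches, of which those at -233 and -232 overlap on opposite strands, and Slc30a2 had 2. Slc39a5 and Slc39a8 each had 1 match in 1 of their 2 windows, and Mtf1 had 0. Slc39a4 and Slc39a14 had no promoter window in the sources used here and were not searched, so 8 of the 10 genes gave 10 windows. Of all 32851 windows of 300 bases, 25.7% held at least 1 match, 7.11% at least 2, 1.97% at least 3 and 0.518% at least 4. A match is a description of letters and says nothing about binding.

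**Figure D1:**
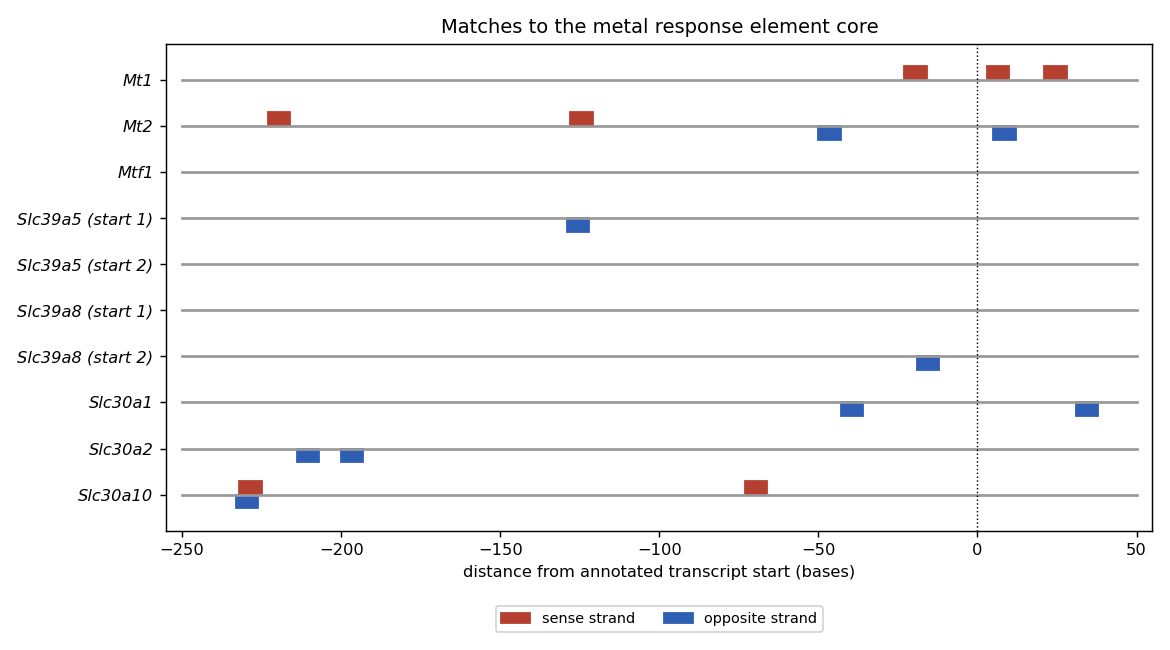
Matches to the metal response element core in 10 promoter windows of 8 genes, by distance in bases from the annotated transcript start (dotted line). Red boxes lie on the sense strand and blue boxes on the opposite strand; Mt2 holds 4 matches and Mtf1 holds 0.

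Levels are the deposited log2 values, and each change is KO minus WT. Nfkbia, which encodes IκBα, averaged 5.06 ± 0.31 in KO and 9.19 ± 0.38 in WT (SD, n = 5 each). 3 Y-linked genes also separated the groups, Eif2s3y (-5.20), Uty (-4.47) and Kdm5d (-2.42), with limma adjusted p at most 7.72e-05. They averaged 4.04, 3.38 and 3.77 in KO, below the medians of the negative control probe sets, and 9.23, 7.84 and 6.19 in WT. In everything that follows the KO label thus went with a Y-linked signal at background. The KO label and this Y-linked difference cannot be told apart here, and the part of that difference in the results was not tested. The mean of 10 epithelial markers was 10.42 to 10.96 in KO arrays and 10.83 to 11.01 in WT arrays, but its members went both ways. 3 rose, the keratin Krt18 (1.43) and the adhesion gene Cdh1 (0.45) among them, 3 fell, the intestinal factor Cdx2 (-2.16) and the brush border gene Vil1 (-1.03) among them, and 4 did not pass. Among all probe sets tested, 15.0% rose and 11.7% fell. The 13 measured markers of mesenchyme, blood and vessels averaged 4.97 to 5.26 in KO arrays and 5.14 to 5.25 in WT arrays, and in both groups all 13 averaged below the 95th percentile of the negative control probe sets, which was 7.17 to 7.77 in the 10 arrays. The negative control medians were 4.30 to 5.10. The 8 spike-in controls differed between the groups by -0.85 to -0.10, with a median of -0.52, which bears on any change of that size.

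Of the 10 genes, 1 rose and 7 fell in KO organoids, and 2 did not pass (limma, adjusted p under 0.05). Slc39a4 rose, and Mt1, Mt2, Slc39a5, Slc39a8, Slc39a14, Slc30a1 and Slc30a10 fell. Among all 19572 probe sets tested, 15.0% were called higher and 11.7% lower, or 26.7% in all. In 7 of the 10 genes the 5 KO values and the 5 WT values did not overlap, which was so for 21.4% of all probe sets. These were Slc39a4 upward, where 12.3% of all probe sets did not overlap, and 6 genes downward, where 9.07% did not. The median change was -1.13 for the 10 genes and -0.015 for all probe sets. The 10 genes were chosen with earlier results of these data known, so these counts and medians describe the genes and are no test. The call counts were the same in all but 1 kind of alternative, the leaving out of single arrays, where Slc39a8 was lost 4 times.

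**Figure D2:**
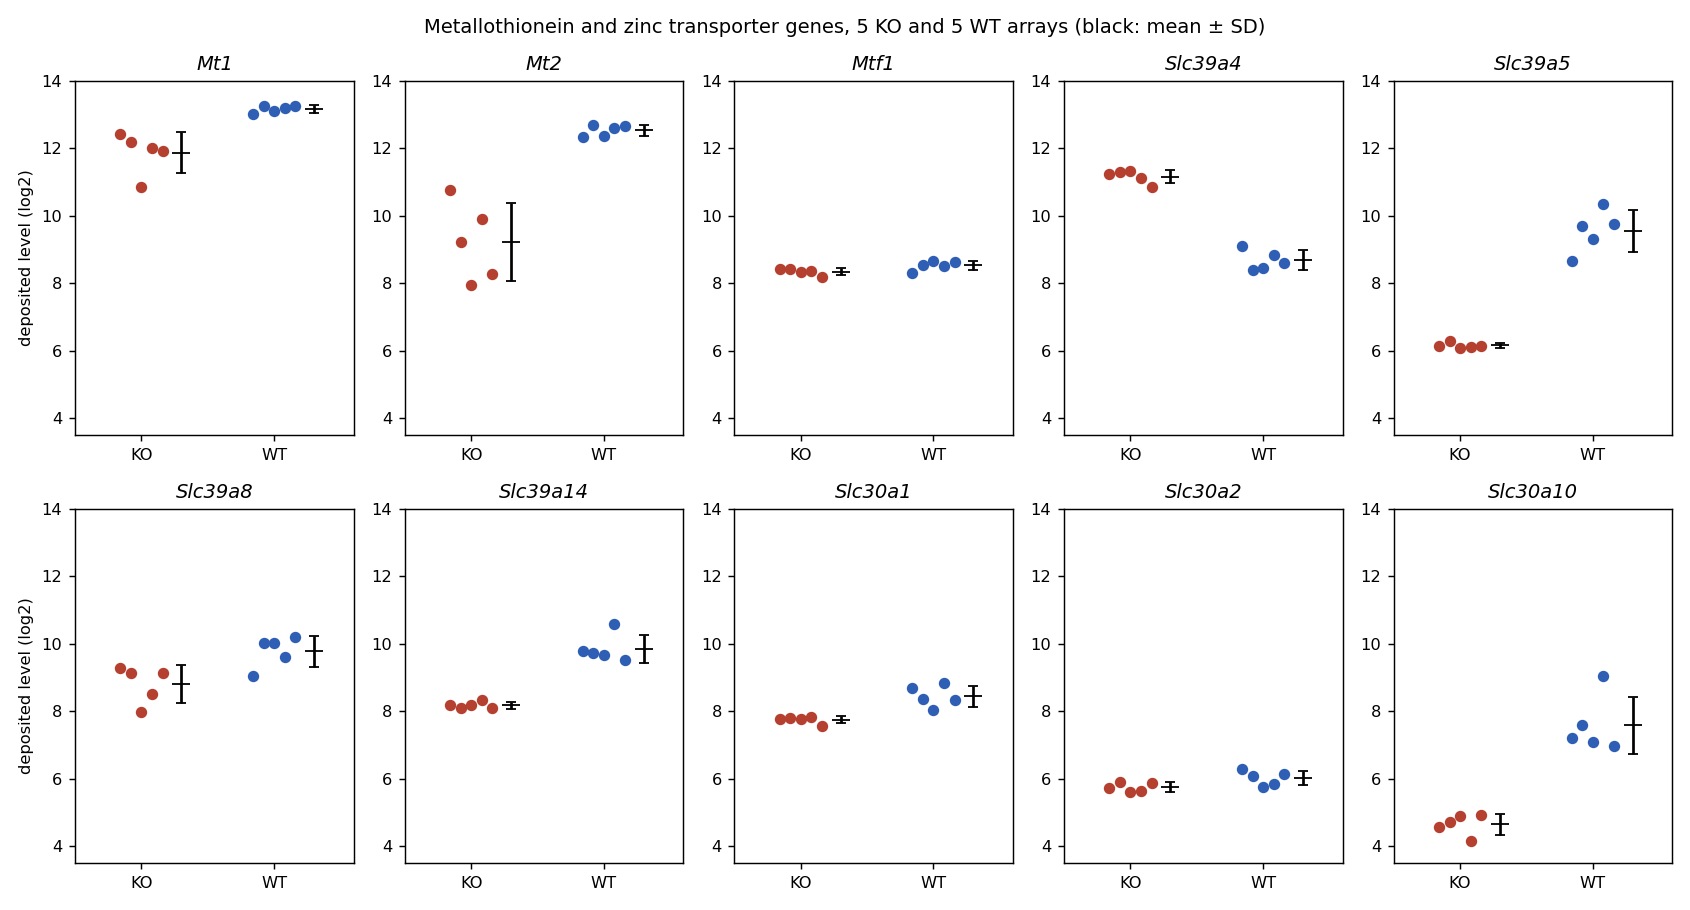
Deposited log2 level of each of the 10 genes in the 5 KO arrays (red) and the 5 WT arrays (blue); black bars give the mean and SD of each group. Slc39a4 is higher in every KO array, at 10.85 to 11.32 against 8.39 to 9.12 in WT, and Mt2 spreads from 7.94 to 10.77 within KO.

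Both metallothioneins were lower in all KO arrays. Mt2 stood at 10.77, 9.22, 7.94, 9.90 and 8.29 in KO replicates 1 to 5, against 12.34, 12.70, 12.37, 12.60 and 12.67 in WT replicates 1 to 5. The highest KO array lay 1.58 below the lowest WT array. The mean was 9.22 ± 1.16 in KO and 12.54 ± 0.17 in WT (SD, n = 5 each), a change of -3.32 with a standard error of 0.44, or 9.95-fold lower (limma, adjusted p = 0.000147). The KO arrays thus spread over 2.82 on the log2 scale and the WT arrays over 0.36. The KO spread of Mt2 was wider than that of 99.1% of probe sets, while its WT spread was wider than that of 35.3%.

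Mt1 had 12.43, 12.19, 10.86, 12.0 and 11.92 in KO replicates 1 to 5, against 13.01, 13.27, 13.10, 13.21 and 13.27 in WT replicates 1 to 5. Again the groups did not overlap, with a gap of 0.58. The mean was 11.88 ± 0.60 in KO and 13.17 ± 0.12 in WT (SD, n = 5 each), a change of -1.29 with a standard error of 0.24, or 2.45-fold lower (limma, adjusted p = 0.00181). In the WT arrays Mt1 ranked between 2 and 4 among all 19572 probe sets, near the array maxima of 13.48 to 13.79. Whether signal near the top of the scale is compressed was not tested. KO replicate 3 was the lowest and KO replicate 1 the highest of its group for both genes, and WT replicate 1 was the lowest WT array for both. Mt1 and Mt2 are neighbours on chromosome 8 and similar in sequence, and how far their probes tell them apart was not tested.

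Mtf1, which encodes the zinc-sensing factor, was nearly level. It had 8.43, 8.42, 8.35, 8.37 and 8.19 in KO replicates 1 to 5, against 8.32, 8.56, 8.66, 8.51 and 8.63 in WT replicates 1 to 5, and the groups overlapped. The change was -0.18 with a 95% confidence interval of -0.40 to 0.03 and did not pass (limma, adjusted p = 0.214). This is a transcript level and says nothing about the activity of the protein.

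Of the 4 importers, Slc39a4 of the brush border rose, while Slc39a5 of the basolateral side, Slc39a8 and Slc39a14 fell. Slc39a4 had 11.25, 11.30, 11.32, 11.12 and 10.85 in KO replicates 1 to 5, against 9.12, 8.39, 8.47, 8.83 and 8.60 in WT replicates 1 to 5. Every KO array lay at least 1.73 above every WT array. The mean was 11.17 ± 0.19 in KO and 8.68 ± 0.30 in WT (SD, n = 5 each), a change of 2.48 with a standard error of 0.15, or 5.59-fold higher (limma, adjusted p = 2.32e-07). Over all alternatives its change stayed between 2.41 and 2.68.

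Slc39a5 had 6.14, 6.30, 6.09, 6.12 and 6.15 in KO replicates 1 to 5, against 8.67, 9.69, 9.33, 10.34 and 9.76 in WT replicates 1 to 5. The KO values were tight and the WT values spread over 1.67, and the gap between the groups was 2.37. The mean was 6.16 ± 0.08 in KO and 9.56 ± 0.61 in WT (SD, n = 5 each), a change of -3.40 with a standard error of 0.24 (limma, adjusted p = 8.68e-07). All 5 KO values lay above the negative control medians but below the 95th percentile of the negative controls, so they cannot be told apart from the upper range of those controls. With that percentile as a floor, Slc39a5 was at least 4.34-fold lower in KO. Here and below, bulk RNA cannot separate fewer cells of a type from less RNA per cell.

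Slc39a14, an importer of zinc, manganese and iron that IL-6 induces in mouse liver, had 8.18, 8.09, 8.18, 8.34 and 8.09 in KO replicates 1 to 5, against 9.77, 9.71, 9.67, 10.57 and 9.52 in WT replicates 1 to 5. The groups did not overlap, and WT replicate 4 stood above the other WT arrays. The mean was 8.18 ± 0.10 in KO and 9.85 ± 0.41 in WT (SD, n = 5 each), a change of -1.67 with a standard error of 0.18, or 3.19-fold lower (limma, adjusted p = 2.32e-05). Without WT replicate 4 the change was -1.49 and kept its call.

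Slc39a8, which carries zinc, manganese and cadmium, had 9.29, 9.14, 7.97, 8.50 and 9.14 in KO replicates 1 to 5, against 9.05, 10.01, 10.03, 9.59 and 10.20 in WT replicates 1 to 5. The groups overlapped, since WT replicate 1 lay below 3 of the KO arrays. The mean was 8.81 ± 0.56 in KO and 9.78 ± 0.46 in WT (SD, n = 5 each), a change of -0.97 with a standard error of 0.28, or 1.95-fold lower (limma, adjusted p = 0.0247). The call was lost without KO replicate 4 and without WT replicate 2, 3 or 5 (limma, adjusted p = 0.0564 to 0.0628). KO replicate 3, the lowest for both metallothioneins, was also the lowest for Slc39a8.

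Slc30a10, the manganese exporter, fell. It had 4.57, 4.70, 4.88, 4.14 and 4.93 in KO replicates 1 to 5, against 7.21, 7.59, 7.09, 9.04 and 6.98 in WT replicates 1 to 5. The gap between the groups was 2.05. The mean was 4.64 ± 0.32 in KO and 7.58 ± 0.85 in WT (SD, n = 5 each), a change of -2.94 with a standard error of 0.35 (limma, adjusted p = 5.51e-05). The KO values lay at the level of the negative control medians, so with the 95th percentile of those controls as a floor Slc30a10 was at least 1.10-fold lower. 3 of the 5 WT values also lay below the 95th percentile of the negative controls, and WT replicate 4 was the highest. Without WT replicate 4 the change was -2.57, but the mean of the other WT arrays then lay below that floor. The least fold thus rests on WT replicate 4, and without it none can be given.

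Slc30a1, the exporter of the plasma membrane, had 7.76, 7.79, 7.76, 7.83 and 7.57 in KO replicates 1 to 5, against 8.68, 8.35, 8.03, 8.82 and 8.34 in WT replicates 1 to 5. The groups did not overlap, though the gap was 0.20. The mean was 7.74 ± 0.10 in KO and 8.45 ± 0.31 in WT (SD, n = 5 each), a change of -0.70 with a standard error of 0.14, or 1.63-fold lower (limma, adjusted p = 0.00339). This size is within the range over which the spike-in controls differed.

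Slc30a2, the Paneth granule exporter, had 5.73, 5.91, 5.59, 5.63 and 5.88 in KO replicates 1 to 5, against 6.27, 6.07, 5.75, 5.85 and 6.13 in WT replicates 1 to 5. All 10 values lay below the 95th percentile of the negative controls, and the groups overlapped. The change was -0.27 with a 95% confidence interval of -0.54 to 0.00090 and did not pass (limma, adjusted p = 0.138). In the same arrays, of 11 measured Paneth cell markers 8 fell and 2 rose, where the defensins Defa3 and Defa17 had identical values in all 10 arrays and so count 1 signal 2 times; their mean level was 6.76 to 7.21 in KO arrays and 10.20 to 10.79 in WT arrays. The defensin Defa24 was among those that fell, at least 27.9-fold lower in KO with the same floor. The 2 that rose, named outside the rule, were Mmp7 by 3.05 (limma, adjusted p = 1.48e-06) and Nupr1 by 1.16 (limma, adjusted p = 0.0192). The groups did not overlap for Mmp7 and overlapped for Nupr1. Over all probe sets 15.0% rose and 11.7% fell.

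A second list held the other 19 metallothioneins, ZIP and ZnT genes, all of them measured. Of these 5 rose, 5 fell and 9 did not pass (limma, adjusted p under 0.05), with a median change of 0.012. Among all probe sets 15.0% rose and 11.7% fell. The largest rises were those of Slc39a10 (1.90) and Slc39a6 (1.46), close relatives that import zinc at the plasma membrane. In mouse cells MTF1 is known to hold Slc39a10 down when zinc is plentiful. Slc39a10 had 7.76, 8.94, 9.66, 8.78 and 8.99 in KO replicates 1 to 5, against 7.40, 6.91, 7.57, 5.92 and 6.82 in WT replicates 1 to 5 (limma, adjusted p = 0.00193). Slc39a6 had 9.03, 8.90, 9.33, 9.68 and 9.57 in KO replicates 1 to 5, against 8.14, 7.89, 8.17, 6.83 and 8.20 in WT replicates 1 to 5 (limma, adjusted p = 0.00143). Neither gene had a WT array as high as its lowest KO array, though for Slc39a10 the gap was 0.19. 4 of the 5 WT values of Slc39a10 lay below the 95th percentile of the negative controls.

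The remaining rises were smaller. Slc39a13, a vesicular importer, rose by 0.64, Slc39a7, the importer of the endoplasmic reticulum, by 0.36, and Slc30a7, which loads zinc into the early secretory pathway, by 0.35. Of those that fell, Mt4, a metallothionein of squamous epithelia, changed by -0.73, the vesicular exporter Slc30a4 by -0.61, Slc39a11 by -0.52, the secretory pathway exporter Slc30a5 by -0.45 and Slc39a2 by -0.36. All 5 of these falls are within the range over which the spike-in controls differed. Slc39a13 lay below the 95th percentile of the negative controls in all 5 WT arrays, Mt4 in all 5 KO arrays and Slc39a2 in all 10 arrays. 5 of these calls depended on the fit. Slc39a7 lost its call in 8 of the 10 fits that left out 1 array, Slc39a2 and Slc39a11 in 7 each, and Slc30a5 without KO replicate 5 or WT replicate 5. Slc30a7 lost it without WT replicates 1 and 4 together (limma, adjusted p = 0.101), as did Slc39a2, Slc39a7 and Slc30a5. Centring on the 75th percentile also ended the calls of Slc39a2 and Slc39a7 (limma, adjusted p = 0.0507 and 0.0508). For Slc39a2 so did a replicate block (limma, adjusted p = 0.0983) and adjustment over all probe sets (limma, adjusted p = 0.0537). The count that fell was 3 without KO replicate 2 or WT replicate 4, and 2 without KO replicate 5 or WT replicate 5.

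The 9 that did not pass were Mt3 (0.11), Slc39a1 (0.34), Slc39a3 (0.02), Slc39a9 (-0.21), Slc39a12 (-0.04), Slc30a3 (0.11), Slc30a6 (-0.28), Slc30a8 (0.01) and Slc30a9 (-0.34). Slc39a1 passed without WT replicate 4 (limma, adjusted p = 0.0297) and Slc30a9 without WT replicate 2 (limma, adjusted p = 0.0309). Taking the families whole, 5 of 14 ZIP genes rose and 5 fell, 1 of 10 ZnT genes rose and 4 fell, and 3 of 4 metallothioneins fell with none that rose. Over all probe sets the shares were 15.0% higher and 11.7% lower. The metallothioneins that fell were Mt1, Mt2 and Mt4. Of these, Mt4 lay below the 95th percentile of the negative controls in 5 KO and 2 WT arrays.

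**Figure D3:**
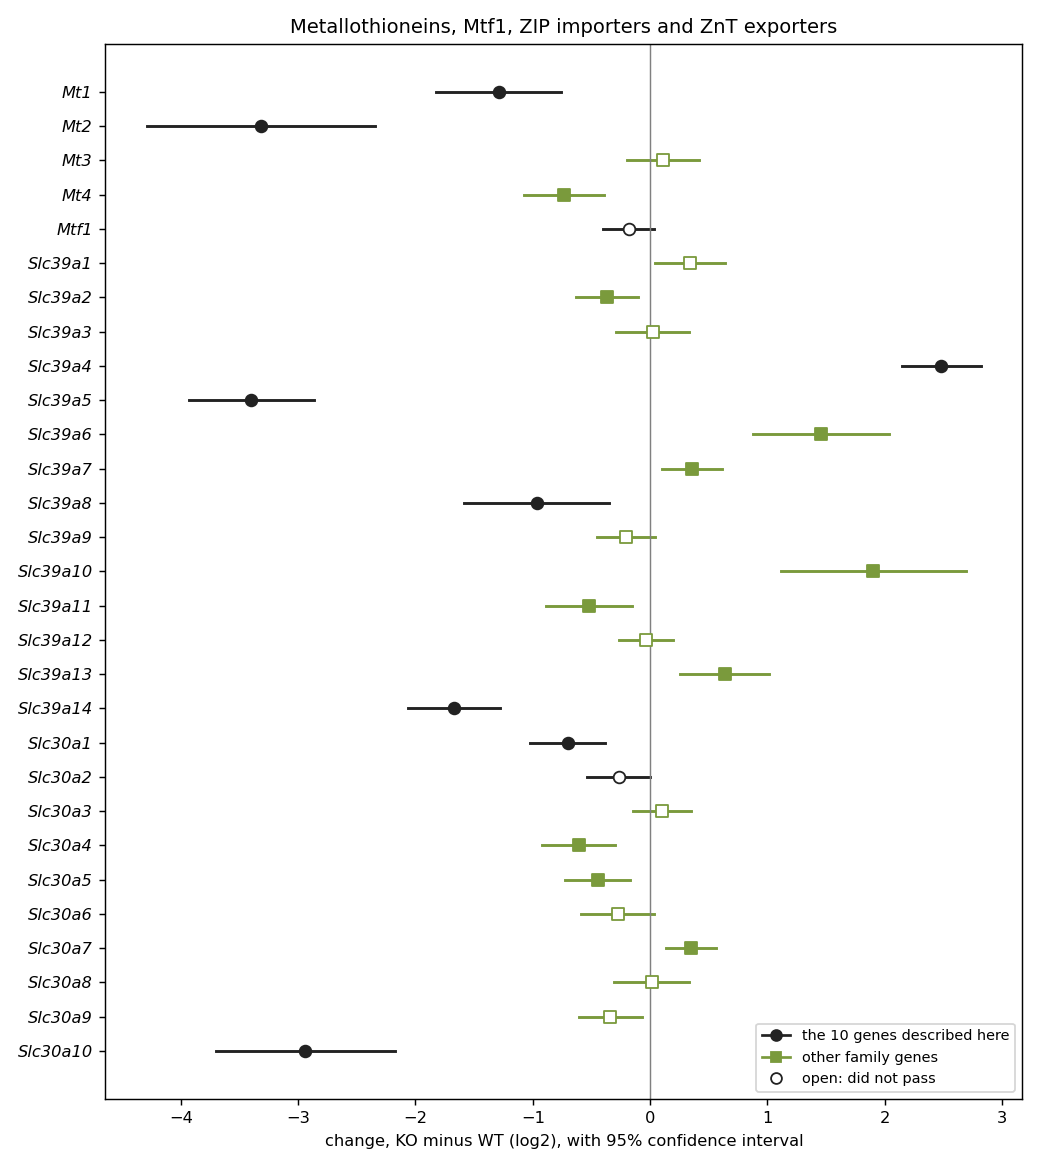
Change (KO minus WT, log2) of 29 metallothionein, Mtf1, ZIP and ZnT genes with its 95% confidence interval; black circles are the 10 genes described here, green squares the other 19, and open symbols did not pass. Slc39a4 lies farthest right at 2.48 and Slc39a5 farthest left at -3.40.

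Metals and oxidants act on several of the same genes, so a list of 14 measured metal and oxidative stress response genes was set beside the metallothioneins. Of these 7 rose, 3 fell and 4 did not pass, with a median change of 0.53 (-0.015 for all probe sets). The shares over all probe sets were 15.0% higher and 11.7% lower. Hmox1, which breaks down heme, rose by 2.0 (limma, adjusted p = 7.69e-05), the glutathione synthesis gene Gclc by 1.30 (limma, adjusted p = 7.78e-05), and the heat shock gene Hspa1b by 1.89 (limma, adjusted p = 1.57e-05). All 5 WT values of Hmox1 and of Hspa1b lay below the 95th percentile of the negative controls; with it as a floor, Hmox1 was at least 2.78-fold higher and Hspa1b at least 2.54-fold higher. Nqo1, a quinone reductase, fell by 3.59 (limma, adjusted p = 0.000112). It had 8.17, 6.95, 5.52, 6.46 and 5.28 in KO replicates 1 to 5, against 10.15, 10.03, 9.53, 10.56 and 10.06 in WT replicates 1 to 5. 4 of the 5 KO values of Nqo1 lay below the 95th percentile of the negative controls, all but that of replicate 1, so the size of its change and the order of those 4 arrays are uncertain. Metal levels were not among the values analysed here, and their part in these changes was not tested.

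Because IL-6 induces Slc39a14 and metallothioneins in mouse liver, genes of IL-6 and acute phase signalling were set beside them. Of 17 measured, 10 rose, 1 fell and 6 did not pass, with a median change of 0.76. Over all probe sets 15.0% rose and 11.7% fell, with a median change of -0.015. Lcn2, which withholds iron from bacteria, rose by 7.66, Lbp by 5.66, the interleukin-1 receptor Il1r1 by 4.47 and the shared receptor subunit Il6st by 2.14 (limma, adjusted p at most 4.24e-05). All 5 WT values of Lcn2, Lbp and Il1r1 lay below the 95th percentile of the negative controls. With it as a floor, Lcn2 was at least 55.8-fold higher, Lbp at least 15.2-fold higher and Il1r1 at least 3.69-fold higher. Lcn2 and Lbp were already known from these data to lead the changes when the list was written, so its count and median are no test. Il6ra and Hp rose but lay below the 95th percentile of the negative controls in all 10 arrays. Socs3 (0.14), Saa1 (-0.084) and Saa2 (-0.072) did not pass. Saa1 and Saa2 lay below that percentile in all 10 arrays, and Socs3 in 3 KO and 5 WT arrays, so little can be read from them. Saa3 (1.52), Cebpd (1.42) and Stat3 (0.76) rose, and their groups did not overlap. For Saa3 all 5 WT values lay below that percentile, and for Cebpd 4 did. The genes from Il6ra to Stat3 are named outside the rule. Il6 itself, named outside the rule, changed by -0.14 at a level below the 95th percentile of the negative controls in all 10 arrays and did not pass (limma, adjusted p = 0.359). The 1 that fell was the kinase Jak2 (-0.52), named after its value was seen. Its size is within the range over which the spike-in controls differed. The call was lost without KO replicate 1, 2, 3 or 5 and without WT replicate 1 or 4. Slc39a14, Mt1 and Mt2 were lower in the same KO arrays in which the 10 genes of this list that rose were higher. In a comparison of KO with WT this follows from the direction of each change, and a link between them was not tested.

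Of 15 measured transporters of other divalent metals, 2 rose, 5 fell and 8 did not pass, with a median change of -0.067. Again, 15.0% of all probe sets rose and 11.7% fell. Slc31a2, a copper transporter relative of vesicles, rose by 1.46 and the magnesium channel Trpm6 by 1.05. Cnnm4, a basolateral magnesium exporter, fell by 1.26 and the copper importer Slc31a1 by 0.67 (limma, adjusted p at most 0.00612 for the 4). The size of the Slc31a1 change is within the range over which the spike-in controls differed. Without WT replicate 4, 4 rose. Trpm6 lay below the 95th percentile of the negative controls in all 10 arrays. Ferroportin (Slc40a1), which exports iron and is named outside the rule, changed by -0.15 and did not pass (limma, adjusted p = 0.881). Its KO values ran from 6.73 to 9.66 and its 95% confidence interval from -1.35 to 1.06, so a change either way remains possible. Also named outside the rule, Slc11a2 (-1.25) and Tfrc (-1.18) fell (limma, adjusted p = 0.00921 and 0.0133), and Slc11a1 (0.27) did not pass.

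**Figure D4:**
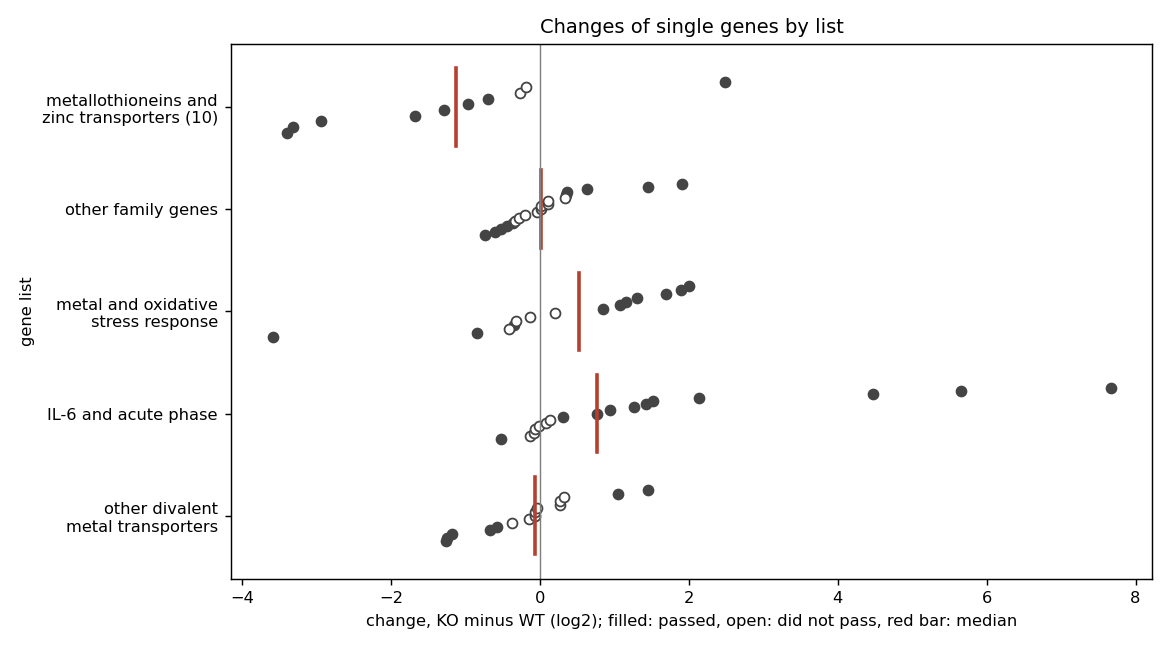
Change (KO minus WT, log2) of every measured gene in 5 lists; filled circles passed, open circles did not, and red bars are medians. 7 of the 10 metallothionein and zinc transporter genes lie left of 0 and passed, while the other family genes centre on 0.012. The lists were chosen with earlier results of these data known.

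Like the 7 genes that fell, markers of absorptive enterocytes were lower in KO. In a comparison of KO with WT, any genes lower in KO share this direction, so it shows no link by itself. All 11 measured markers fell, with a mean level of 5.36 to 5.54 in KO arrays and 9.86 to 11.94 in WT arrays, and all 11 averaged below the 95th percentile of the negative controls in KO. With that percentile as a floor, the brush border enzyme Sis was at least 23.4-fold lower, the lipid carrier Fabp2 at least 19.9-fold lower and the lipid transfer protein Mttp at least 21.6-fold lower. Within WT, replicate 1 was lowest and replicate 4 highest both for the mean of these markers and for Slc39a5. Slc30a10 and Slc39a14 were also highest in WT replicate 4, but their lowest WT array was replicate 5, where the marker mean was 11.49. Slc30a1 was highest in WT replicate 4 too, and lowest in replicate 3. Mt1, Mt2 and Slc39a8 were lowest in WT replicate 1, but highest in replicates 5, 2 and 5. Slc39a4, an enterocyte gene, rose in KO, and WT replicate 1 held its highest WT value. Of the other cell types, 6 of 9 measured goblet cell markers fell and none rose, with a mean of 6.49 to 9.10 in KO arrays and 9.07 to 10.04 in WT arrays. 9 of 10 enteroendocrine markers fell, with a mean of 5.51 to 5.81 in KO arrays and 7.89 to 8.65 in WT arrays. Of 11 markers of pancreas and liver, tissues that also express Slc39a5, Slc39a14 and Slc30a10, 3 fell and none rose. Their mean level was 5.65 to 5.79 in KO arrays and 6.04 to 6.32 in WT arrays. Of the 11, 10 averaged below the 95th percentile of the negative controls in KO and 9 in WT. Alb and Serpina1a, which are among the 3 that fell, lay below it in all 10 arrays. Beside these marker counts, 15.0% of all probe sets were called higher and 11.7% lower. The part of cell type markers in the changes of the 10 genes was not tested. Without WT replicates 1 and 4 together, a choice made after the data were seen, the 10 genes again gave 1 that rose and 7 that fell.

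**Figure D5:**
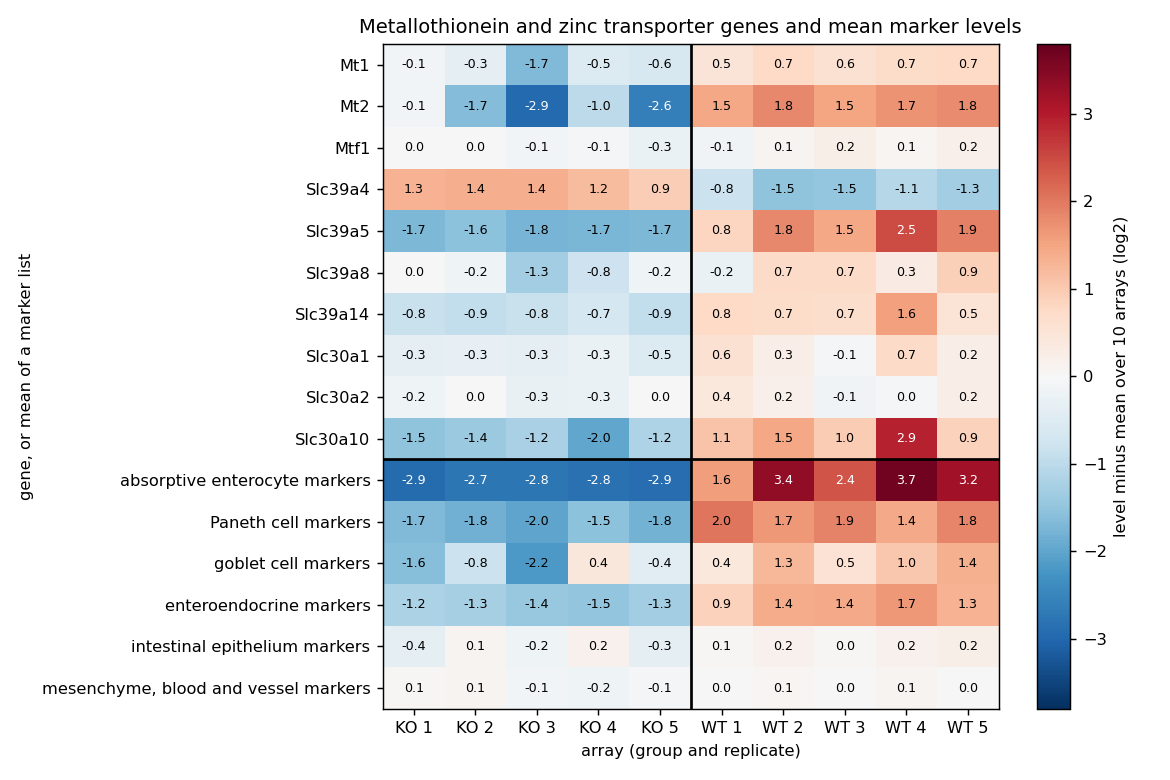
Level minus its mean over the 10 arrays (log2) for the 10 genes and for the mean of 6 marker lists, with KO replicates 1 to 5 on the left and WT replicates 1 to 5 on the right. Slc39a5, Slc39a14, Slc30a1 and Slc30a10 are highest in WT replicate 4, as are the absorptive enterocyte markers. Mt1 and Mt2 are lowest in KO replicate 3.

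For each of the 10 genes, the 3 genes with the nearest profile over the 10 arrays were found by the mean absolute distance between values centred on each gene's mean. This measure rests largely on the difference between the groups. Nearest to Mt2 were Nqo1 (0.31), Ifi27l2b (0.36) and the glutathione transferase Gstt2 (0.37). Nearest to Mt1 were Ifi27l2a (0.20), the kinase subunit Pik3r1 (0.21) and Tmco4 (0.21), and Ifi27l2a was also among the 3 nearest to Slc39a8 (0.25). Slc39a4 lay nearest to Flot2 (0.15), a membrane raft protein, Ppl (0.17), which links keratins to cell junctions, and Slfn2 (0.18). Slc39a5 lay nearest to Tubal3 (0.18), the pyrimidine-degrading enzyme Dpyd (0.19) and Pnliprp2 (0.20), a pancreatic lipase relative. Slc39a14 lay nearest to Ros1 (0.098), Ces2h (0.11) and Zc3h12d (0.12), and Slc30a10 to the nuclear receptor Nr1i3 (0.18), Syna (0.21) and Gpr155 (0.26). Slc30a1 lay nearest to Fuom (0.072), Abcc6 (0.094) and Lzic (0.098). The nearest to Mtf1 and Slc30a2, which did not pass, changed by -0.28 to -0.20.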

How the data were processed

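The members and gene lists were chosen with earlier results of these data known. Per the labels' protocols, 100 ng of total RNA from each organoid sample was labelled with biotin for 1 array. The deposited values are log2 levels, 1 for each probe set and array. RMA and limma are named, without versions, in the submitters' processing notes. Neither the genome build nor joint normalization of the arrays is stated in the sources used here. Probe sets were named from GEO's platform annotation, and 19572 had 1 symbol. KO and WT were compared with limma 3.58.1 (R 4.3.3) on all 28846 probe sets, with no covariate, with Benjamini-Hochberg adjustment over the 19572 and a threshold of 0.05. A gene with several probe sets was read from the one with the highest mean over the 10 arrays. Folds are 2 to the power of the log2 change. The fit was tested on simulated data. Alternatives were a replicate block, cyclic loess, centring on the 75th percentile, leaving out the dimmest probe sets (quantile 0.25), a trended and robust variance, array weights, adjustment over all probe sets, averaged probe sets, leaving out single arrays and, chosen after seeing the data, leaving out WT replicates 1 and 4. The rule for named genes took all 10 members, Nfkbia, the other family genes, the 4 with the smallest p in each other list and the 3 nearest profiles. Promoters and motifs used Python 3.11.15. The number of arrays limits precision.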

Additional observations from a re-analysis of the deposited data

Results flagged for a closer look

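82 groups of 5 arrays were examined for a value far from the other 4, by the ratio of its gap to the whole range, and 5 stood out; chance alone gives about 1 in 20. Slc39a14 in WT replicate 4 was 10.57, above the other WT arrays at 9.52 to 9.77 (ratio 0.761). Slc39a5 in KO replicate 2 was 6.30, above the other KO arrays at 6.09 to 6.15 (ratio 0.726), a distance of little size. Slc39a6 in WT replicate 4 was 6.83, below the other WT arrays at 7.89 to 8.20 (ratio 0.772). Trpm6 in KO replicate 5 was 6.50, above the other KO arrays at 5.09 to 5.28 (ratio 0.867), and in WT replicate 3 it was 4.21, below the other WT arrays at 4.42 to 4.48 (ratio 0.771). WT replicate 4 accounts for 2 of the 5.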

How the results depend on the processing

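The 10 genes gave 1 higher and 7 lower under all 9 alternatives other than leaving out single arrays, and 6 to 7 lower when 1 array was left out. Of their changes, the call of Slc39a8 alone was lost in any of these fits (-1.15 to -0.76 without 1 array). Over all genes 5224 passed, 4344 to 5187 without 1 array and 4586 to 6253 otherwise. Without WT replicates 1 and 4, 3 of the other family genes rose, 3 fell, and 0 IL-6 and acute phase genes fell (limma; 1 at an unadjusted p under 0.05). Without 1 array, 4 to 5 of the other family genes rose and 2 to 5 fell, 0 to 1 IL-6 genes fell and 2 to 4 other metal transporters rose. 3 genes near 0 that never passed changed sign. Slc39a3 was -0.0079 with cyclic loess, -0.011 with the 75th percentile, -0.048 with array weights, -0.16 without WT replicates 1 and 4 and -0.10 to 0.078 without 1 array. Slc30a8 was -0.020 with the 75th percentile, -0.084 with array weights, -0.077 without WT replicates 1 and 4 and -0.079 to 0.092 without 1 array. Slc39a12 was 0.0037 without WT replicates 1 and 4 and -0.080 to 0.013 without 1 array. The cause of these changes was not tested. With a replicate block 4913 genes passed; only 2 of 5 same-numbered pairs had deviations that correlated above 0.1 and 2 of 5 KO arrays correlated best with their own number, so the numbers were not taken to pair samples. A signal near the negative controls limits Slc30a2, Slc30a10 and Slc39a5.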
